A study of Mus musculus with 32 samples.

Results

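The nuclear pore and nuclear transport genes were followed in single mouse embryos after a tRNA fragment was targeted with an antisense oligonucleotide. The 49 members were taken by gene symbol from a table of 34223 genes: 23 nuclear pore proteins, 13 importins, 7 exportins, 5 genes of the Ran cycle and the mRNA exporter gene Nxf1. All 49 symbols were present. Each library was 1 wild-type late 2-cell embryo, taken 28 h after in vitro fertilization (IVF). Every embryo had received mRNA for histone H3.3 joined to green fluorescent protein and 1 of 2 oligonucleotides stabilised with locked nucleic acid (LNA). In the Val_LNA group it was antisense to tRFValCAC, a 5' fragment of a valine tRNA, and in the Ctrl_LNA group it was a scramble, with 16 embryos in each. The symbols were listed with earlier results of this same contrast in view, so the calls below describe these genes and are no independent test of the list. The labels do not say whether embryos shared a mating or an injection day, so a p-value here speaks of the spread among these embryos, which may be partly technical.

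Traffic between nucleus and cytoplasm passes through nuclear pore complexes, which are built of stacked rings of proteins with filaments on the cytoplasmic side and a basket on the nuclear side. Importins carry cargo in and exportins carry cargo out. Ran, a small GTPase that is loaded with GTP in the nucleus and hydrolyses it in the cytoplasm, gives the traffic its direction, while most mRNA leaves through the separate exporter Nxf1. At the 2-cell stage of the mouse, stored maternal mRNA is being cleared while the embryo's own genome is switched on, and factors made in the cytoplasm must reach the nucleus for that.

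The regions upstream of 4 members that passed the test in at least 1 fit below are shown because they are where a promoter motif could be sought. Each is the 250 bases before the RefSeq start site on GRCm38.p6, read 5' to 3' on the gene's strand. Capitals mark a match to the GC box (GGGCGG), the CCAAT box (CCAAT), the TATA box (TATAAA) or the ETS core (CCGGAAG) on either strand.
Tpr, chr1:150392588-150392837, plus strand: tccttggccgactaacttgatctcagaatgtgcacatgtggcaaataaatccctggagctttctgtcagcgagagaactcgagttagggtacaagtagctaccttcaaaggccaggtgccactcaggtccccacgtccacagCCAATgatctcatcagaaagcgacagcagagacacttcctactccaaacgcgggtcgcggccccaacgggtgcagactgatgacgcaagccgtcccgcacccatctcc
Nup133, chr8:123949266-123949515, minus strand: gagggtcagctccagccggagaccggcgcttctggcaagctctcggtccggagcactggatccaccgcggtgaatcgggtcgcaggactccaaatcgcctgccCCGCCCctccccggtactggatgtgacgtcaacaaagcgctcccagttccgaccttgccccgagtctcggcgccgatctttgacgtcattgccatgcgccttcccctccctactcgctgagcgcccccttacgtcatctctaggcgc
Kpnb1, chr11:97187893-97188142, minus strand: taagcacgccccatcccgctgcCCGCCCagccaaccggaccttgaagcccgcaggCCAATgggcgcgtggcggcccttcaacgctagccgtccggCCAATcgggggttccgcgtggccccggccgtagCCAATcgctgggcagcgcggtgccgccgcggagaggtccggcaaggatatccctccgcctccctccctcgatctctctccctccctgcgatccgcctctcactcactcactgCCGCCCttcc
Ipo9, chr1:135430500-135430749, minus strand: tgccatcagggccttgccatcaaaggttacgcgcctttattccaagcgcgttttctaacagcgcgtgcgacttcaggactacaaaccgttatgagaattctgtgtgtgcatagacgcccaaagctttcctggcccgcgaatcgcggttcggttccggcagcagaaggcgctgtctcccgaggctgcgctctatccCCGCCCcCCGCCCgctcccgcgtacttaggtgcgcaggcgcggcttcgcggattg

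No motif occurred in all 4 windows. Tpr held 1 CCAAT box, Nup133 held 1 GC box, Kpnb1 held 2 GC boxes and 3 CCAAT boxes, and Ipo9 held 2 GC boxes. A second RefSeq start of Ipo9 gives a window that also holds 1 CCAAT box. The window of Tnpo3, which passed in some fits too, is not printed because it overlaps annotated transcript, and it held 1 ETS core. Ranbp3, Xpo1 and Aaas also passed in at least 1 fit. No window was matched for Ranbp3, and those of Xpo1 (1 GC box, 2 CCAAT boxes) and Aaas (1 ETS core) are not printed. RefSeq windows were matched for 38 of the 49 members, some with more than 1 start, giving 45 windows. The GC box was found in 64.4% of these against 32.7% of all 32851 windows, the CCAAT box in 42.2% against 33.8%, the TATA box in 11.1% against 12.4% and the ETS core in 17.8% against 6.91%. Identical windows of a member were counted once, whereas the 32851 were counted without removing repeats, so the 2 shares follow unlike rules. The member windows were also richer in CG dinucleotides, with a median of 22 against 6. These are letter matches in a window and describe no binding.

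The authors' table gives read counts divided by size factors, here called normalised counts. Libraries held between 2592925 and 6259870 reads, and 31 of the 32 embryos had reads in 16687 to 20200 genes. The remaining control, Ctrl_LNA 48, had reads in 7276 genes, so results are given with and without it. Markers were summed within each embryo, and the group median of these sums is given. All 9 two-cell markers passed the level filter (median sums 12400 in Val_LNA and 10000 in Ctrl_LNA normalised counts). So did all 8 markers of stored oocyte RNA (13600 and 9290). By contrast 7 of 8 cumulus and granulosa cell markers and 4 of 5 sperm markers had a median of 0. Their median sums were 39.0 and 15.3 for the first list and 8.52 and 6.09 for the second. Of 6 blastocyst markers 4 passed the level filter and 2, Cdx2 and Sox17, had a median of 0, with median sums of 55.3 and 53.7. The members made up 0.812% ± 0.132 (SD, n = 16) of the normalised counts in Val_LNA and 0.928% ± 0.115 (n = 16) in Ctrl_LNA. Because counts were divided by size factors, a lower value means less of a gene's RNA relative to the rest of its library. Whether total RNA per embryo differed, or which of its cells held less, cannot be read from these values. Reverse transcription was primed on poly(A), so mRNA amount and tail length cannot be told apart.

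Tpr, a protein of the nuclear basket, fell in Val_LNA, while the import receptor gene Kpnb1 and the export cofactor gene Ranbp3 rose, in limma with all embryos and an adjusted p under 0.05. The remaining 45 of the 48 members tested did not pass. Genes were tested where at least 8 of the 32 embryos reached 10 normalised counts, on log2(normalised count + 1), with p adjusted over all 15559 genes. In that fit 0.881% of all genes were called higher and 1.31% lower, against 2 and 1 of the 48 members. Without Ctrl_LNA 48 the calls were 2 higher and 4 lower, with Nup133, Tnpo3 and Ipo9 added to Tpr, where 1.58% and 2.61% of all genes were called. In no member did the groups separate without overlap, as 0.0321% of all tested genes did in the lower direction and none in the higher.

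The count models gave fewer or different calls. With all embryos edgeR called 0 members higher and 1 lower (0.193% and 1.05% of all genes), and DESeq2 called 1 and 2 (1.33% and 2.19%). DESeq2 ran with its default replacement of outlying counts, so its fit with all embryos can weigh Ctrl_LNA 48 less than edgeR does. Without Ctrl_LNA 48 edgeR called 0 and 2 (0.573% and 1.57%), and DESeq2 called 2 and 3 (2.23% and 2.46%). Library numbers came in 2 runs per group, 1 to 8 and 13 to 20 for Val_LNA and 31 to 38 and 43 to 50 for Ctrl_LNA, and the labels do not say what the runs are. In limma the lower runs alone called 2 members higher and 2 lower (0.623% and 0.533% of all genes), and the upper runs 0 and 1 (0.0129% and 0.212%), or 0 and 2 without Ctrl_LNA 48 (0.045% and 0.797%). When every library was centred on its own median gene, 1 and 3 members were called (0.392% and 1.93%). In Ctrl_LNA 48, 58.2% of tested genes were at 0, so its median gene was 0 and centring raised all its values. The centred fit was not made without that embryo. Tpr was called lower in each of these fits.

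By role, 1 of 22 tested pore genes, 1 of 13 importin genes, none of the 7 exportin genes and 1 of 5 Ran cycle genes passed. At an unadjusted p under 0.05, which 14.7% of all tested genes had, the counts were 3, 2, 2 and 2. The median log2 fold change, Val_LNA minus Ctrl_LNA, was 0.11 over pore genes, 0.08 over importins, 0.01 over exportins and -0.06 over the Ran cycle, against 0.26 over all tested genes. Without Ctrl_LNA 48 the medians were -0.07, -0.18, -0.11 and -0.34, against 0.068. Relative to the median gene, the pore, importin and exportin genes thus lay close to one another in both fits. Within the importins the median was 0.22 over the 6 importin alpha genes and -0.67 over the 7 importin beta family genes, of which 4 were negative, or 0.14 and -0.85 without Ctrl_LNA 48. In the upper runs alone the medians were 0.21 and 0.12, or 0.06 and -0.74 without Ctrl_LNA 48, so the gap between the families was not seen in every fit. These medians describe the lists and no test was made of them. With all embryos the log2 fold change was below -1 for Tpr, Nup133, Nup155, Tnpo3, Ipo4 and Nxf1, and above 1 for Ranbp3, Kpnb1, Xpo7 and Aaas. Of these only Tpr, Ranbp3 and Kpnb1 passed the test. Without Ctrl_LNA 48, Xpo7 (0.75), Aaas (0.7) and Nxf1 (-0.89) were no longer beyond 1, and Ipo9 fell below -1. The share of all tested genes beyond 1 was not worked out, so this list is not set against a background.

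**Figure D1:**
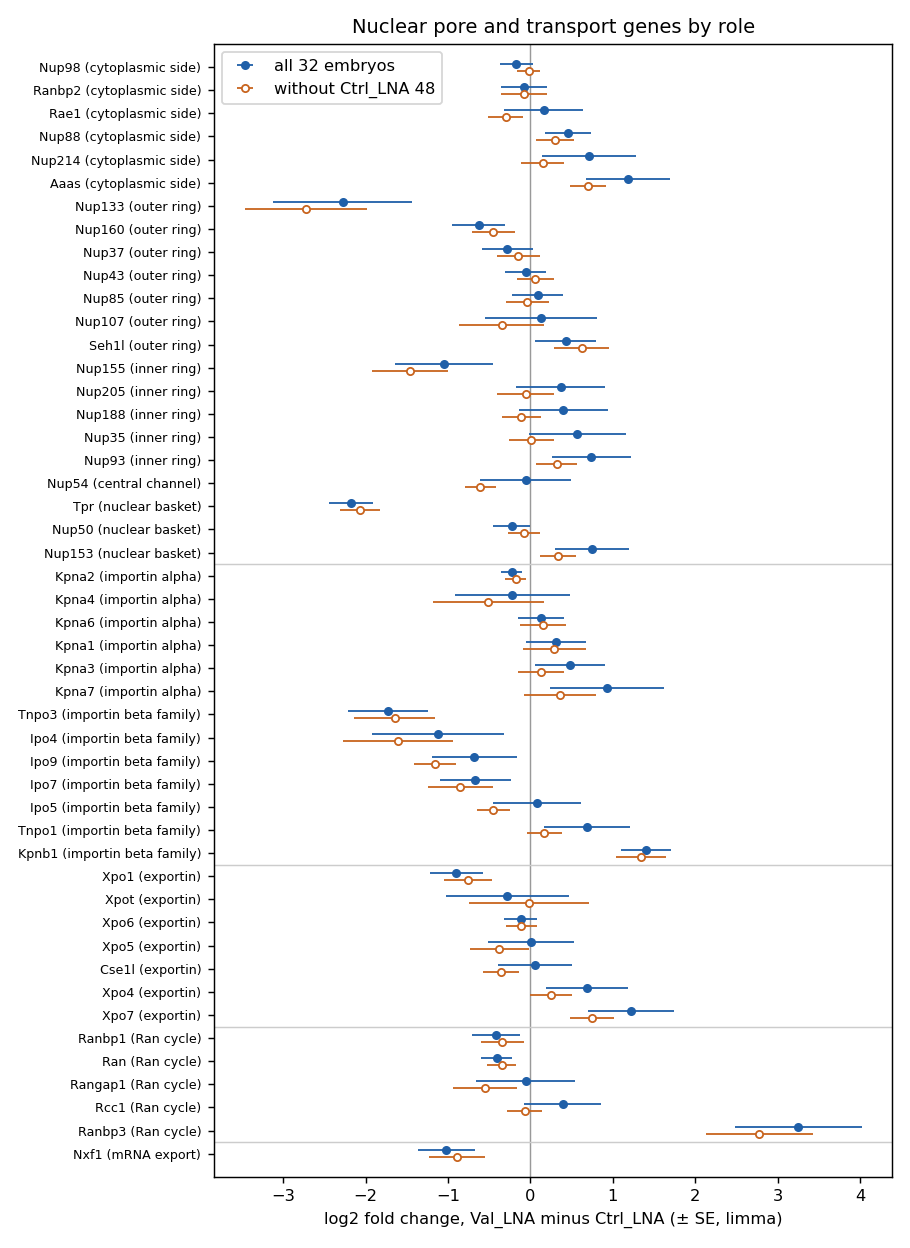
Log2 fold change of each tested member (Val_LNA minus Ctrl_LNA, horizontal axis, with its standard error from limma), grouped by role, with all 32 embryos (filled) and without Ctrl_LNA 48 (open). Tpr at -2.18 and Ranbp3 at 3.25 lie farthest from 0 among the genes called with all 32 embryos, and without Ctrl_LNA 48 Ranbp3 at 2.78 and Nup133 at -2.73 do.

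The summed level of each role, with every gene's normalised count divided by its exon length in kb, showed how the embryos differed as a whole. Pore genes summed to 2438 ± 246 per kb in Val_LNA (SD, n = 16), 2599 ± 343 in Ctrl_LNA (n = 16) and 2531 ± 214 without Ctrl_LNA 48. Importins summed to 3107 ± 367 in Val_LNA and 3424 ± 471 in Ctrl_LNA, or 3409 ± 483 without it. Exportins summed to 248 ± 76.0 and 331 ± 141, or 302 ± 84.5 without Ctrl_LNA 48, where they reached 760. The group means of pore genes lay within 1 SD of each other. The 3 nuclear basket genes stood lower, at 235 ± 67.3 in Val_LNA. In Ctrl_LNA they were at 365 ± 203, or 315 ± 40.1 without Ctrl_LNA 48. Against the controls without Ctrl_LNA 48 this difference lay in Tpr, as Nup153 had a higher mean in Val_LNA and Nup50 a similar one. The pore genes other than Tpr summed to 2411 ± 244 in Val_LNA and 2467 ± 298 in Ctrl_LNA, or 2414 ± 219 without Ctrl_LNA 48. These sums weigh abundant genes most and were not tested.

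Tpr (ENSMUSG00000006005.18, chr1:150392838-150449935, plus strand, GRCm38) encodes the long coiled-coil protein of the nuclear basket, which is known for keeping heterochromatin away from the pore and for mRNA surveillance at the nuclear exit. Its normalised counts ran from 105 to 472 in Val_LNA with a median of 283, and from 239 to 3888 in Ctrl_LNA with a median of 1244. Each of the 16 Val_LNA values was under the control median, and 15 of 16 controls lay above the highest Val_LNA embryo. The groups overlapped only through Ctrl_LNA 32, the control at 239. The means were 283 ± 104 and 1391 ± 806 (SD, n = 16 each), a 4.91-fold lower mean in Val_LNA, or 4.33-fold against the 1224 ± 470 of the 15 controls other than Ctrl_LNA 48. The log2 fold change was -2.18 (SE 0.27, limma adjusted p = 2.61e-06), the seventh smallest p of the table (rank 7).

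Every other fit also called Tpr lower. On the log2 scale the change was -2.34 in edgeR (adjusted p = 2.39e-06) and -2.3 in DESeq2 (adjusted p = 1.73e-15). The lower runs alone gave -1.93 (limma adjusted p = 0.0124) and the upper runs without Ctrl_LNA 48 gave -2.23 (adjusted p = 0.000796). Leaving out each embryo in turn left Tpr called in 32 of 32 fits. On the opposite strand Tpr shares exon sequence with Odr4 and Prg4, whose log2 fold changes were 0.66 and -0.37 (limma adjusted p = 0.56 and 0.647). The library protocol does not mark strand.

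**Figure D2:**
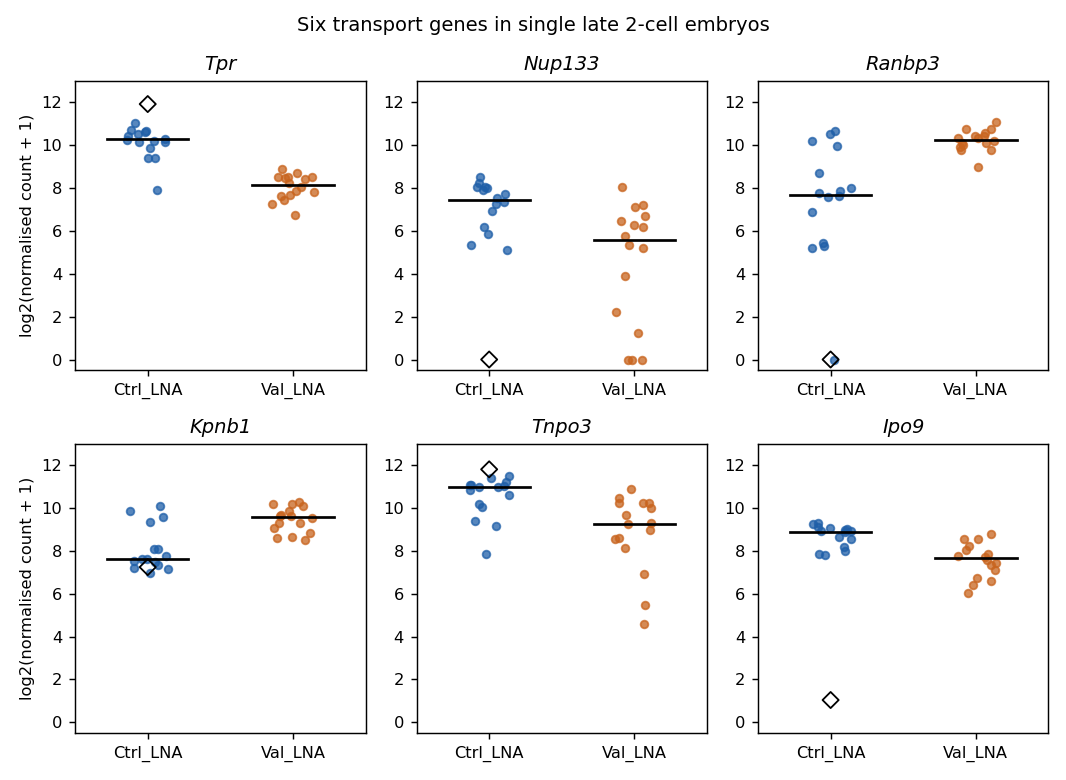
Normalised counts of 6 members in each embryo on a log2(count + 1) axis, by group, with the group median as a bar and Ctrl_LNA 48 as a diamond. Tpr separates all but 1 control from the Val_LNA embryos, and in Kpnb1 and Ranbp3 4 controls sit among the Val_LNA embryos.

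The other nuclear basket genes did not pass. Nup153, which docks the basket to the ring, had 411 ± 196 normalised counts in Val_LNA and 306 ± 90.7 in the 15 controls without Ctrl_LNA 48. Nup50, a basket partner of importin alpha, had 730 ± 257 and 760 ± 214. Their log2 fold changes were 0.75 (SE 0.45) and -0.23 (SE 0.23) with all embryos, with limma adjusted p of 0.428 and 0.65. The test of Tpr against these neighbours was not made, and only the values are given.

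In the outer ring, the Y-shaped complex that coats the membrane and also binds kinetochores, Nup133 was the gene with the smallest p. Nup133 (ENSMUSG00000039509.8, chr8:123897123-123949265, minus strand) ran from 0 to 268 normalised counts in Val_LNA with a median of 46.7, and from 0 to 369 in Ctrl_LNA with a median of 172. In Val_LNA 13 of 16 embryos had any read, and the control at 0 was Ctrl_LNA 48. The groups overlapped widely, although 15 of 16 Val_LNA values were under the control median. The log2 fold change was -2.28 (SE 0.84, limma adjusted p = 0.177) with all embryos and -2.73 (SE 0.74, adjusted p = 0.0268) without Ctrl_LNA 48. In edgeR and DESeq2 without that embryo the adjusted p was 0.286 and 0.123. The opposite-strand transcript Gm45890, which shares exon sequence with Nup133, was at -1.48 on the same scale (limma adjusted p = 0.188) with all embryos and -1.72 (adjusted p = 0.0511) without Ctrl_LNA 48.

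The 6 other outer ring genes did not pass with or without Ctrl_LNA 48, and their log2 fold changes ran from -0.63 (Nup160) to 0.43 (Seh1l) with all embryos. Nup107, the partner of Nup133 in the stem of the Y, had 487 ± 294 normalised counts in Val_LNA and 511 ± 312 in the 15 other controls. In the inner ring, which lines the transport channel, none of 5 genes passed. Nup155, its membrane-side scaffold protein, had 110 ± 80.7 in Val_LNA and 248 ± 151 in the 15 controls, a log2 fold change of -1.46 (SE 0.46, limma adjusted p = 0.0654) without Ctrl_LNA 48 and -1.05 (adjusted p = 0.413) with it. The remaining inner ring genes Nup93, Nup188, Nup205 and Nup35 had log2 fold changes from -0.11 to 0.32 without that embryo. Nup54, a protein of the central channel, was at 313 ± 146 and 448 ± 103 in the same comparison, with an adjusted p of 0.0654.

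None of the 6 genes on the cytoplasmic side passed in limma. Nup214, which holds the mRNA remodelling machinery at the pore, was the most abundant pore gene, with a range of 1486 to 8168 normalised counts and a median of 3883 in Val_LNA, and of 6.3 to 7267 with a median of 3574 in Ctrl_LNA. Its log2 fold change was 0.71 (SE 0.57, limma adjusted p = 0.558), and 0.15 (SE 0.26) without Ctrl_LNA 48, which held the 6.3. Aaas, which encodes the scaffold protein aladin and is named here after its values were seen, had 362 ± 150 in Val_LNA and 222 ± 95.2 in the 15 other controls, with 15 of 16 Val_LNA embryos above the control median. It was called in DESeq2 without Ctrl_LNA 48 (log2 fold change 0.71, adjusted p = 0.0275) but not in limma (0.7, adjusted p = 0.0624). Ranbp2, the large filament protein that binds SUMO-modified Rangap1, had 487 ± 238 and 495 ± 190; 12 pseudogenes named after it could share its reads. Nup210, a membrane ring protein known for its absence from some undifferentiated cells, had reads in 11 Val_LNA and 7 Ctrl_LNA embryos, at 7.81 ± 10.7 and 5.66 ± 12.0, and was too low to test.

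Of the Ran cycle genes, Ranbp3 rose. Ranbp3 (ENSMUSG00000002372.8, chr17:56673294-56711764, plus strand) encodes a nuclear Ran-binding protein that helps the exportin Xpo1 take up cargo. Its normalised counts ran from 508 to 2140 in Val_LNA with a median of 1224, and from 0 to 1619 in Ctrl_LNA with a median of 207. Of the controls 12 lay below the lowest Val_LNA embryo, and 2 of these were at 0, Ctrl_LNA 32 and Ctrl_LNA 48. The means were 1264 ± 402 and 440 ± 553 (SD, n = 16 each), a ratio of 2.87, or 2.69 without Ctrl_LNA 48. On the log2 scale the difference was 3.25 (SE 0.77, limma adjusted p = 0.0134), which is larger than the log2 of that ratio because the controls near 0 weigh more on a log scale. Neither edgeR (1.42, adjusted p = 0.307) nor DESeq2 (1.52, adjusted p = 0.0829) called it.

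The other Ran cycle genes did not pass. Ran had 1081 ± 412 normalised counts in Val_LNA and 1425 ± 483 in Ctrl_LNA, with 15 of 16 Val_LNA values under the control median and a log2 fold change of -0.41 (SE 0.19, limma adjusted p = 0.316). Rcc1, the chromatin-bound exchange factor that loads Ran with GTP, had 479 ± 181 in Val_LNA and 513 ± 217 in the 15 other controls. Rangap1, which makes Ran hydrolyse GTP in the cytoplasm, had 643 ± 387 and 869 ± 476, and Ranbp1, its co-activator, had 121 ± 51.5 and 146 ± 55.7. Without Ctrl_LNA 48 the log2 fold changes of Rcc1, Rangap1 and Ranbp1 were -0.07, -0.55 and -0.34. Rcc1 shares exon sequence on its own strand with Snhg3, and Ranbp1 with Gm49776, so part of their counts is uncertain.

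Kpnb1 was the importin gene that rose. Kpnb1 (ENSMUSG00000001440.5, chr11:97159714-97187881, minus strand) encodes importin beta, the receptor that takes importin alpha and its cargo through the pore and that also keeps spindle factors inactive in mitosis. Its normalised counts ran from 365 to 1249 in Val_LNA with a median of 764, and from 125 to 1084 in Ctrl_LNA with a median of 196. All 16 Val_LNA embryos lay above the control median and 12 controls lay below the lowest Val_LNA embryo. The means were 758 ± 297 and 354 ± 314 (SD, n = 16 each), a ratio of 2.14, or 2.06 without Ctrl_LNA 48, which was at 150. The log2 fold change was 1.4 (SE 0.3, limma adjusted p = 0.00649). DESeq2 also called it (1.1, adjusted p = 0.0178), and edgeR did not (1.05, adjusted p = 0.126). After centring every library on its own median gene it was 0.95 (limma adjusted p = 0.332). The centred fit includes Ctrl_LNA 48, whose median gene was 0, and was not made without that embryo.

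The 2 runs of library numbers gave different values for Kpnb1. Its median was 582 in the lower and 1021 in the upper Val_LNA run, and 181 in the lower control run and 642 in the 7 upper-run controls other than Ctrl_LNA 48. The log2 fold change was 1.65 in the lower runs (limma adjusted p = 0.0019) and 0.95 in the upper runs without Ctrl_LNA 48 (adjusted p = 0.341). For Ranbp3 it was 4.04 (adjusted p = 0.0234) and 1.34 (adjusted p = 0.384). A direct test of the difference between runs in limma called none of the 48 members, with a smallest adjusted p of 0.817 with all embryos and 0.685 without Ctrl_LNA 48. It also called none of the 15559 tested genes in either fit, so the absence of calls is not particular to the members. At an unadjusted p under 0.05 it named 4 and 9 members, against 5.19% and 5.91% of all tested genes. Ranbp3 was among the 9, and Kpnb1 was in neither list. The antisense transcript Gm11583, which overlaps Kpnb1, also rose, from 8.57 to 23.3 mean normalised counts (log2 fold change 2.37, limma adjusted p = 0.0152). Reads of the 2 strands cannot be told apart here.

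Among the 6 other members of the importin beta family, Tnpo3 and Ipo9 passed only in some fits. Tnpo3 (ENSMUSG00000012535.14, chr6:29540827-29609887, minus strand) encodes transportin 3, which imports the SR splicing factors. Its normalised counts ran from 23.1 to 1868 in Val_LNA with a median of 619, and from 230 to 3576 in Ctrl_LNA with a median of 2009. Each of the 16 Val_LNA values was under the control median, and 9 controls lay above the highest of them. In limma the log2 fold change was -1.73 (SE 0.49, limma adjusted p = 0.0519) with all embryos and -1.65 (SE 0.49, adjusted p = 0.0496) without Ctrl_LNA 48, values on either side of the threshold. DESeq2 called it (-1.31, adjusted p = 0.0271) and edgeR did not (-1.33, adjusted p = 0.128). The opposite-strand gene Irf5, which shares exon sequence with Tnpo3, was at -1.71 on the same scale (limma adjusted p = 0.127).

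Ipo9 (ENSMUSG00000041879.13, chr1:135382312-135430499, minus strand) encodes importin 9, a carrier of histones H2A and H2B. It ran from 65.2 to 437 normalised counts in Val_LNA with a median of 199. In Ctrl_LNA it ran from 1.05 to 631 with a median of 477, and from 223 to 631 without Ctrl_LNA 48, which held the 1.05. Each of the 16 Val_LNA values was under the control median and 9 controls lay above the highest of them. This gave a log2 fold change of -0.68 (SE 0.52, limma adjusted p = 0.537) with all embryos and -1.16 (SE 0.25, adjusted p = 0.00304) without Ctrl_LNA 48. Without that embryo edgeR (-1.09, adjusted p = 0.00884) and DESeq2 (-1.04, adjusted p = 0.000839) called it too. The 15 remaining controls and the 16 Val_LNA embryos had means of 437 ± 135 and 213 ± 111, a 2.05-fold lower mean in Val_LNA.

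The other beta family genes did not pass in limma with or without Ctrl_LNA 48. Ipo4, Ipo5 and Ipo7, carriers of histones and ribosomal proteins among other cargo, had 331 ± 269, 965 ± 410 and 517 ± 312 normalised counts in Val_LNA. In the 15 other controls they had 618 ± 403, 1254 ± 344 and 743 ± 272. Their log2 fold changes without Ctrl_LNA 48 were -1.61, -0.45 and -0.85, with limma adjusted p of 0.188, 0.218 and 0.274. Ipo4 shares exon sequence on its own strand with Gm49378, so part of its count is uncertain. Tnpo1, transportin 1, the carrier of many RNA-binding proteins such as hnRNP A1, had 1518 ± 620 and 1356 ± 605. In the fit without Ctrl_LNA 48, 5 of the 7 beta family log2 fold changes were negative, and Kpnb1 and Tnpo1 were the exceptions.

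Importin alpha proteins are the adaptors between classical nuclear localization signals and importin beta, and none of the 6 genes passed. Kpna2 was by far the most abundant, at 4425 ± 1066 normalised counts in Val_LNA (2360 to 7119, median 4505) and 5238 ± 1522 in Ctrl_LNA (3392 to 9125, median 4729). Its log2 fold change was -0.23 (SE 0.13, limma adjusted p = 0.409), and 1 pseudogene carries its name. Kpna3 had 1725 ± 630 in Val_LNA and 1652 ± 1103 in Ctrl_LNA, Kpna1 had 1117 ± 486 and 940 ± 491, and Kpna6 had 645 ± 241 and 640 ± 340. Kpna7, the importin alpha known from oocytes and early embryos, ran from 195 to 3112 in Val_LNA with a median of 765, and from 0 to 2700 in Ctrl_LNA with a median of 530. Its log2 fold change was 0.93 (SE 0.69, limma adjusted p = 0.519), and it shares exon sequence with the opposite-strand Arpc1a. Kpna4 was nearly absent, at 28.4 ± 24.9 and 30.3 ± 20.9. The log2 fold changes of Kpna1, Kpna3, Kpna4 and Kpna6 were 0.31, 0.48, -0.22 and 0.13.

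Per kb of exon, the composition of the importin alpha pool varied more between embryos of a group than between the groups. Kpna2 made up 61.7% ± 10.6 of the 6 genes' summed level in Val_LNA (SD, n = 16) and 67.9% ± 13.8 in Ctrl_LNA (n = 16), or 66.2% ± 12.2 without Ctrl_LNA 48, where it was 94.9%. Kpna3 followed with 16.1% ± 5.02 and 14.4% ± 9.15, and Kpna7 with 12.7% ± 9.65 and 9.43% ± 8.11. The Kpna7 share ran from 2.12% to 34.6% in Val_LNA and from 0 to 27.1% in Ctrl_LNA. Kpna1, Kpna6 and Kpna4 averaged 5.44%, 3.93% and 0.127% in Val_LNA and 4.39%, 3.73% and 0.131% in Ctrl_LNA. The summed level of the 6 genes was 2497 ± 422 per kb in Val_LNA and 2686 ± 536 in Ctrl_LNA.

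**Figure D3:**
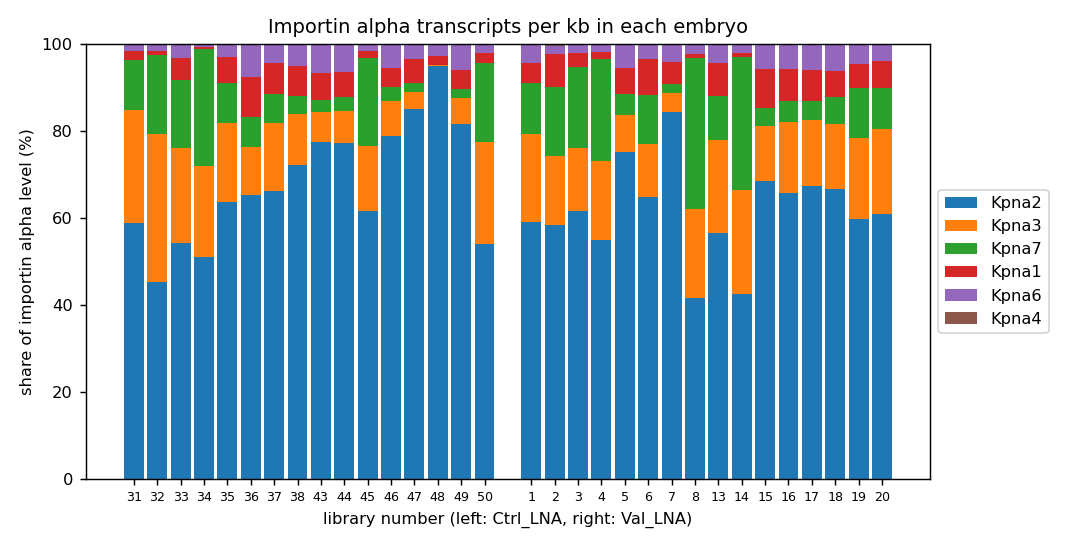
Share of each importin alpha gene in the summed level per kb of the 6 genes (vertical axis, percent), 1 bar per embryo with its library number, Ctrl_LNA on the left. Kpna2 takes the largest share in every embryo, from 41.5% to 94.9%, and the Kpna7 share differs widely within both groups.

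Within the controls, several of these genes varied between the same embryos, a pattern noted after the values were seen. The 4 controls with the most Kpnb1, Ctrl_LNA 44, 46, 47 and 49, had 1084, 767, 642 and 931 normalised counts, while the other 12 lay at 274 or lower. The same 4 embryos were the controls with the most Ranbp3, at 1010, 1494, 1619 and 1176, where the next control had 417. All 4 come from the upper run of library numbers. Together with Ctrl_LNA 43 they held the 5 lowest Kpna3 values of the 15 controls without Ctrl_LNA 48, and all 5 were among the 6 lowest of the 15 for Kpna7 and for Nup214. Tpr in the 4 embryos was 1570, 1638, 1169 and 1486, within the range of the other controls and above every Val_LNA embryo. No test was made of this pattern.

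None of the 7 exportin genes passed with or without Ctrl_LNA 48. Xpo1, the exportin for leucine-rich export signals that is also called CRM1, ran from 153 to 1304 normalised counts in Val_LNA with a median of 516, and from 438 to 4168 in Ctrl_LNA with a median of 858. Ctrl_LNA 48 held the 4168. The means were 641 ± 415 and 1126 ± 880, or 924 ± 354 without Ctrl_LNA 48, and 7 Val_LNA embryos lay below the lowest control. For Xpo1 the log2 fold change was -0.9 (SE 0.32, limma adjusted p = 0.149). In the lower runs alone it was -1.2 (adjusted p = 0.0438), and in the upper runs without Ctrl_LNA 48 -0.34 (adjusted p = 0.718).

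Xpo7, an exportin with broad cargo, had 339 ± 149 normalised counts in Val_LNA (109 to 682, median 344) and 191 ± 94.9 in Ctrl_LNA (0 to 340, median 173). In limma Xpo7 had a log2 fold change of 1.22 (SE 0.52, limma adjusted p = 0.265), or 0.75 (adjusted p = 0.119) without Ctrl_LNA 48. Xpo7 shares exon sequence on the same strand with the oocyte chromatin gene Npm2, which was at 1142 ± 1103 and 641 ± 341, so its count is uncertain. Cse1l, which returns importin alpha to the cytoplasm, had 355 ± 149 in Val_LNA and 428 ± 117 in the 15 other controls. Xpot, the tRNA exportin, had 72.3 ± 47.5 and 102 ± 94.4, and Xpo5, the exportin of microRNA precursors, had 64.0 ± 33.5 and 91.9 ± 54.5. Xpo6, which exports actin, had 613 ± 248 and 639 ± 207, and Xpo4 had 167 ± 61.8 and 149 ± 71.5. Without Ctrl_LNA 48 the log2 fold changes of Cse1l, Xpot, Xpo5, Xpo6 and Xpo4 were -0.36, -0.02, -0.38, -0.11 and 0.25.

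Nxf1, which with its partner Nxt1 takes bulk mRNA through the pore without Ran, did not pass. Its normalised counts ran from 98.5 to 1712 in Val_LNA with a median of 708, and from 184 to 4702 in Ctrl_LNA with a median of 1385. In Val_LNA 15 of 16 values were under the control median, and the groups overlapped. The means were 766 ± 449 and 1518 ± 998, or 1305 ± 544 without Ctrl_LNA 48, which held the 4702. For Nxf1 the log2 fold change was -1.02 (SE 0.35, limma adjusted p = 0.134), or -0.89 (adjusted p = 0.14) without Ctrl_LNA 48.

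A wider list of 52 transport genes that are not members was read in the same way, namely further pore proteins, carriers and RNA export factors. Of these 48 were tested and none was called in limma or in edgeR with all embryos, with 10 at an unadjusted p under 0.05 in limma, which 14.7% of all tested genes had. DESeq2 called 1 higher and 3 lower, where it called 1.33% and 2.19% of all genes. Without Ctrl_LNA 48 limma called 3 higher and 1 lower, where it called 1.58% and 2.61% of all genes. Ndc1, a membrane anchor of the pore, had 221 ± 76.8 normalised counts in Val_LNA and 122 ± 62.5 in Ctrl_LNA, where Ctrl_LNA 48 was at 0. Its log2 fold change was 0.78 (adjusted p = 0.0483) without that embryo and 1.21 (adjusted p = 0.214) with it. Nxt2, a cofactor of Nxf1 family exporters, had 271 ± 97.5 and 155 ± 72.4, with log2 fold changes of 0.73 (adjusted p = 0.0283) and 1.19 (adjusted p = 0.23).

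Ddx39, an RNA helicase of mRNA export, had 2011 ± 914 normalised counts in Val_LNA and 3035 ± 722 in Ctrl_LNA. Its log2 fold change was -0.69 (limma adjusted p = 0.0483) without Ctrl_LNA 48 and -0.72 (adjusted p = 0.0523) with it. Zc3h11a, a zinc finger protein of the mRNA export complex TREX, had 450 ± 147 in Val_LNA and 297 ± 445 in Ctrl_LNA, or 192 ± 142 without Ctrl_LNA 48, which alone had 1885. Its log2 fold change was 1.46 (limma adjusted p = 0.000939) without that embryo and 1.23 (adjusted p = 0.0587) with it. The Zc3h11a locus overlaps another row of the table, so its count is uncertain.

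The members differed far more in level from one another than between the groups. In the 15 controls without Ctrl_LNA 48, normalised counts per kb of exon ran from 0.576 ± 1.18 (Nup210) to 1733 ± 401 (Kpna2), with a median of 87.7 over the 49 members against 23.1 over all tested genes. Kpna2 was followed by Ran (508), Nup214 (422), Kpna3 (409), Nup35 (356) and Nxf1 (295). By role the median level was 62.9 for pore genes, 121 for importins, 133 for the Ran cycle and 16.9 for exportins. Xpo1 was the highest exportin at 129 ± 49.3 and Xpo7 the lowest at 10.7 ± 4.36. Exon length here is that of all annotated exons of a gene merged, 7181 bases for Xpo1 and 19005 for Xpo7. The order of levels therefore depends on the annotation, and in normalised counts not divided by length Xpo7 was not the lowest exportin. The pore's own parts were uneven: the 7 outer ring genes ran from 25.9 (Nup133) to 240 (Nup43), the 5 inner ring genes reached 356 (Nup35) and were lowest for Nup205, and the 3 basket genes from 43.6 (Nup153) to 155 (Nup50). Importin alpha genes ran from 3.61 (Kpna4) to 1733, a 480-fold range, and the beta family from 53.0 (Ipo9) to 209 (Ipo5), a 3.94-fold range.

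Ctrl_LNA 48 differed from the other 31 embryos in most members. It had reads for 37 of the 49, against 45 to 49 in the others. Its value was above the highest of the other 31 for 14 members, among them Tpr, Xpo1, Nxf1, Kpna2, Tnpo3 and Nup98, and below the lowest for 24, among them Nup214, Rangap1, Rcc1, Kpna3, Kpna7 and Ipo9. Over all tested genes 13.3% were above and 33.4% below the other 31, and 58.2% were at 0. The plot of this embryo against the median of the others shows members on both sides of the line and a row of 12 at 0.

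**Figure D4:**
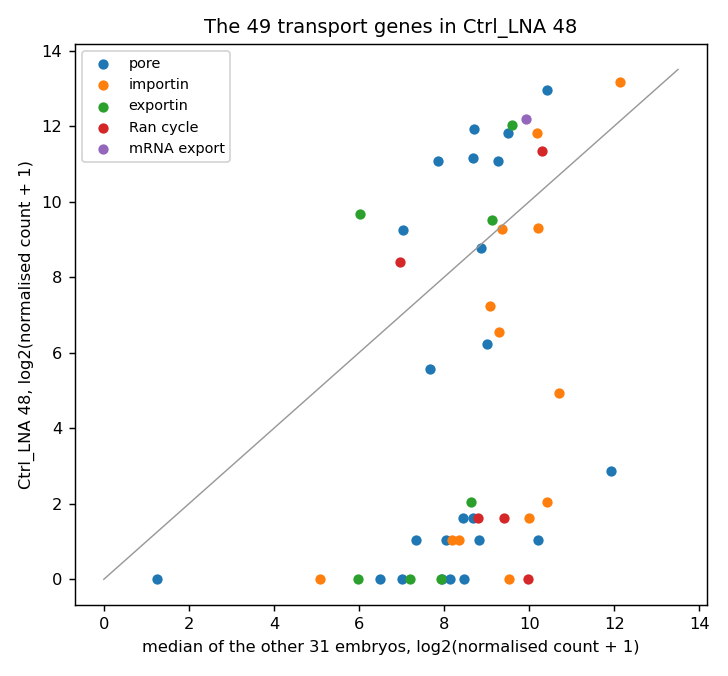
Each of the 49 members in Ctrl_LNA 48 (vertical axis) against its median over the other 31 embryos (horizontal axis), both as log2(normalised count + 1), coloured by role, with the line of equal values. The 12 members at 0 form the bottom row, and 14 members lie above the range of the other embryos.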

How the data were processed

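RNA from 32 single embryos was bound to beads, reverse transcribed from poly(A) with template switching, amplified by 20 PCR cycles and tagmented, per the labels' protocols. No molecular identifiers or strand marks are named, so PCR copies count as reads. Bowtie2, STAR, SAMtools, DESeq2 and mm10 were used, per the submitters' processing notes; which step each served, and the versions and annotation, is not given in the sources used here. What the authors deposited is a signal table of read counts divided by DESeq size factors, and the size factors as a score. Multiplying both gave whole reads for 1095136 of 1095136 values (distance at most 0.00855).

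Members and lists were chosen with earlier results of these data known. Named genes are members called in limma with 32 embryos or without Ctrl_LNA 48, in edgeR or in DESeq2; per role, the smallest p values and the highest and lowest levels; and fixed representatives. Normalised values were tested as log2(value + 1) with limma 3.58.1 (trend, robust) in R 4.3.3 and Benjamini-Hochberg adjustment over genes with at least 10 in at least 8 embryos. Recovered reads went into edgeR 4.0.16 (quasi-likelihood) and DESeq2 1.42.0 as alternatives. All 3 were run on simulated counts with a fixed spread and no embryo like Ctrl_LNA 48. That run does not show how they behave on the present embryos. Exon lengths and positions are from GENCODE on GRCm38, matched by ID for 34179 of 34223 genes. Promoters are from RefSeq on GRCm38.p6.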

Additional observations from a re-analysis of the deposited data

How the results depend on the processing

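With 32 embryos limma called 137 genes higher and 204 lower, and 2 and 1 members. Without Ctrl_LNA 48 it called 245 and 406 genes and 4 members lower. DESeq2 called 207 and 340 genes with 1 and 2 members, and without Ctrl_LNA 48 346 and 383 genes with 3 members lower. edgeR called 30 genes and 0 members higher (44 and 0 with the deposited size factors), and without Ctrl_LNA 48 89 genes higher with 0 members higher and 2 lower. At an unadjusted p under 0.05 limma had 10 of 48 members and 14.7% of all tested genes. Centring each embryo on its median gene called 61 genes higher, with 1 and 3 members, and moved the median gene from 0.26 to -0.19 on the log2 scale. The centred fit was not made without Ctrl_LNA 48, in which 58.2% of tested genes were at 0. Without the filter on low values 87 genes were higher. Requiring 16 embryos at the minimum called 2 members lower, with 128 genes higher and 188 lower of 12871, and a pseudocount of 10 called 2 members lower, with 203 and 280 of 15559. The lower runs called 83 genes and 2 members lower. The upper runs called 2 genes higher, 33 lower and 0 members higher, and without Ctrl_LNA 48 7 and 124 genes with 0 and 2 members. Leaving out each of the 32 embryos gave 100 to 245 genes higher and 176 to 406 lower, 2 to 2 members higher and 1 to 4 lower. The upper end in genes and in members lower is the fit without Ctrl_LNA 48. No named gene that was called reversed its direction. Tpr stayed called in all 46 alternatives, Kpnb1 in 40 and Ranbp3 in 39. The 46 include the 32 fits that leave out 1 embryo each, with the fit without Ctrl_LNA 48 counted again. Kpnb1 and Ranbp3 kept their calls in all of those, so every loss fell among the remaining alternatives. Kpnb1 was not called in any edgeR fit, in the upper-run fits or after centring. Ranbp3 was not called in any edgeR or DESeq2 fit or in the upper-run fits. Why these calls were lost was not tested. No paired analysis was possible because the labels give no pairing of embryos between the groups. Kpna4 and Nup210 lie near the depth limit, where a few reads decide the value.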
